A study of Homo sapiens with 16 samples.

Results

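The comparison described here is that of RECQL5-depleted (KD) with RECQL5-expressing (WT) cells 10 min after removal of DRB, when RNA polymerase II (RNAPII) had just begun to enter the gene body. It rests on the 4 profiles sampled at 10 min, of 16 in the series, chosen by their labelled time point: KD and WT cells of clone 15 (KD15 and WT15), and those of clone 18 (KD18 and WT18). The 4 profiles at 0 min, taken under the DRB block from the same clones and genotypes, served as the starting point. The cells were HEK293T-rex, human embryonic kidney cells with the tetracycline repressor. All groups, WT included, carried a constitutive shRNA against endogenous RECQL5 and a doxycycline-inducible, shRNA-resistant copy of RECQL5, and all were blocked with DRB. WT cells were kept in doxycycline, and KD cells had been without it for 4 days according to the labels. Each clone descends from a single colony and gave 1 library per genotype and time, so n = 2 per group. The exact permutation test used here cannot reach the 0.05 threshold with 2 against 2 samples, since its smallest p is 0.333. A profile is a mean over genes and holds no value of RECQL5 or of any marker, so neither the depletion nor the cell line could be checked here.

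RECQL5 is a DNA helicase of the RECQ family that binds RNAPII. DRB blocks the kinase of P-TEFb, which is needed for RNAPII to leave the promoter-proximal region for productive elongation, while polymerases already in the gene body run on to the end. After DRB is removed, the polymerases held near the promoter are released together and travel into genes as a wave. In DRB/GRO-seq, nuclei are isolated at a set time after removal, engaged polymerases extend their transcripts with a bromouridine label, and the labelled RNA is sequenced, so that read depth reports where polymerases were engaged. At many mammalian promoters a second polymerase is engaged in the opposite direction, upstream of the transcription start site (TSS).

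The unit throughout is mean normalized read depth per base pair over the long genes that the authors chose, with each library scaled by them to 20000000 reads. The step between values gave 23534033 to 27588341 reads per library at 10 min. The first 8 kb held 740248 to 3473566 reads, a counting error of 0.0537% to 0.116% of the mean depth there, which was far smaller than the differences between clones. One library stood apart before any comparison. KD15 had little signal at the promoter at both times, with a peak depth of 4.95 at 0 min and 5.16 at 10 min, against 24.5 to 42.6 and 28.2 to 40.6 in the other profiles. It also had the highest depth ahead of the wave, 1.45 over 10 to 20 kb at 10 min. Its depth over 20 to 120 kb rose with the share of genes whose position is exonic (0.0302 per percentage point at 10 min and 0.0417 at 0 min), whereas that slope was negative in the other 6 profiles. What part these properties have in the results of clone 15 was not tested. Each result is therefore given by clone, and the value of clone 18 is the value without this library.

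The 10 min signal was lower in KD than in WT from 2 kb upstream of the TSS to about 6 kb downstream, and higher in most positions beyond 7.3 kb. In profiles of bulk cells averaged over genes, fewer transcribing cells or genes and less signal in each cannot be told apart. Over the first 1 kb, the promoter-proximal region, mean depth was 27.4 in WT15 and 29.0 in WT18, but 4.48 in KD15 and 20.3 in KD18. Both KD values lay below both WT values. The fold reduction was 6.11 in clone 15 and 1.43 in clone 18, a mean log2 ratio of −1.57 (SD between clones 1.48, n = 2, exact permutation test, two-sided, p = 0.333). Over 1 to 5 kb, the part of the gene body first entered after release, depth was 11.2 in WT15 and 6.69 in WT18, and only 1.97 in KD15 and 3.73 in KD18. The groups again did not overlap, with a fold reduction of 5.68 in clone 15 and 1.79 in clone 18 (mean log2 ratio −1.68, SD 1.18, exact permutation test, p = 0.333). Beyond the promoter the WT clones themselves were far apart. Over 2 to 3 kb, the log2 ratio of WT15 to WT18 was 1.05, about the size of the KD to WT difference within clone 18 (−1.03), whereas over the first 1 kb it was only −0.085.

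**Figure D1:**
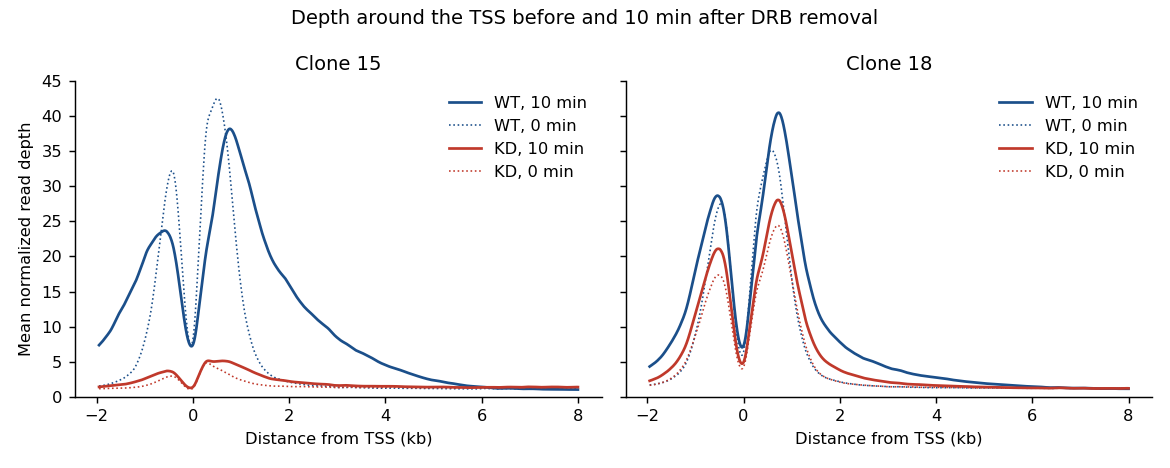
Mean normalized read depth (100 bp running mean) against distance from the TSS in kb, for clone 15 (left) and clone 18 (right), WT in blue and KD in red, at 10 min (solid) and 0 min (dotted). In both clones the 10 min curve of KD lies under that of WT at the promoter and in the first kilobases, and KD15 is low at both times.

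The position at which KD met WT was counted in bins of 100 bp. In 61 of 80 bins from 0 to 8 kb both KD profiles lay below both WT profiles, against 6.64% of the 1220 bins of the whole profile. The last such bin ended at 6.1 kb. All 20 bins upstream of the TSS behaved in the same way, so that every bin of this kind in the profile as deposited lay between −2 and 6.1 kb. The opposite order, both KD above both WT, held in 7 of 80 bins from 0 to 8 kb, the first starting at 7.3 kb, against 78.9% of all bins. With each profile divided by its mean over the whole window, the 61 bins became 57, the 20 upstream became 17, and the 7 became 17. With division by the mean over 80 to 120 kb, the 61 became 63, the 20 upstream and the 7 stayed the same in number, and 117 of the 1000 bins from 20 to 120 kb also had both KD below both WT, against 0 as deposited. Within clones, KD rose above WT at 6.10 kb in clone 15 and at 7.30 kb in clone 18, and the sign did not change again up to 20 kb. Neighbouring bins share reads and are not replicates.

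Ahead of the wave, over 10 to 20 kb, the values were 0.979 for WT15, 1.05 for WT18, 1.45 for KD15, and 1.17 for KD18. KD was thus at 148% of WT in clone 15 and at 111% in clone 18 (mean log2 ratio 0.36, SD 0.29, exact permutation test, p = 0.333). This level, called the floor below, was taken as the signal of positions that the wave had not reached. Between 0 and 10 min it fell to 83.9% and 85.3% of its starting value in the WT profiles and to 90.1% in KD18, and stood at 101% in KD15. Because each library is scaled to the same number of reads, a gain near the promoter and a fall of the floor are not independent of each other. When each profile was divided by its own mean over the whole window, the log2 ratio of the floor rose to 0.58 and that of the first 1 kb kept its sign in both clones. That mean includes the promoter signal, so a profile with less of it comes out higher elsewhere. With division by the mean over 80 to 120 kb, the log2 ratio of the floor was 0.27.

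The KD to WT ratio had a shape along the gene that differed from its shape before release. At 0 min, KD18 and WT18 had nearly equal depth over 1 to 5 kb (log2 ratio 0.050), and KD was lower over the first 1 kb (−0.55). At 10 min, the ratio over the first 1 kb had hardly moved (−0.52), while that over 1 to 5 kb had dropped to −0.84, with its lowest value among the windows measured, −1.04, over 2.5 to 3 kb. In clone 15, the ratio over the first 1 kb went from −3.16 at 0 min to −2.61 at 10 min, and that over 1 to 5 kb from −0.70 to −2.51. The change over 1 to 5 kb was therefore negative in both clones (−1.81 and −0.89, mean −1.35, SD 0.64, exact sign-flip permutation test over clones, p = 0.5, the smallest that 2 pairs allow). Over the first 1 kb the changes were 0.55 and 0.032 (mean 0.29, SD 0.37, exact sign-flip permutation test, p = 0.5). No background level is subtracted in these ratios. At 0 min, KD15 had 1.45 over 1 to 5 kb and 1.44 over 10 to 20 kb, so background made up nearly all of it. A gain in proportion to the lower starting promoter signal of KD would also lower the ratio over 1 to 5 kb. Its fall therefore does not show a smaller gain per promoter signal.

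**Figure D2:**
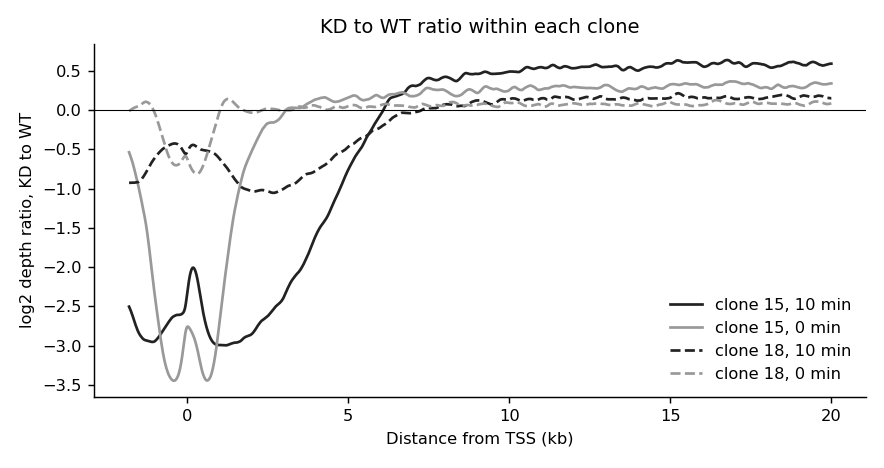
Log2 ratio of KD to WT depth (200 bp running mean) against distance from the TSS in kb, for clone 15 (solid) and clone 18 (dashed), at 10 min (black) and 0 min (grey). At 10 min both clones show a trough in the first kilobases that reaches further into the gene than at 0 min and ends above 0 past 6.10 kb in clone 15 and 7.30 kb in clone 18.

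The position of the promoter peak was compared at 0 and 10 min. In clone 18 the genotypes differed in it before release and hardly at 10 min. The highest 50 bp running mean of WT15 moved from 512 bp at 0 min to 774 bp at 10 min, and that of WT18 from 580 to 723 bp. KD18 kept its peak in place, at 716 bp at 0 min and 715 bp at 10 min. KD15 had its peak at 290 and 311 bp, but its top was flat, since the profile still stood at 97.0% of peak height at 0.5 kb and at 96.1% at 0.75 kb, and a 200 bp running mean placed it at 314 and 616 bp. With that wider mean the peak moved from 499 to 776 bp in WT15, from 588 to 728 bp in WT18, and from 707 to 716 bp in KD18. A peak that stayed within 10 bp under both windows was thus seen in KD18 alone. KD minus WT in peak position at 10 min was −463 bp in clone 15 and −8 bp in clone 18 (exact permutation test, p = 0.333), and with the 200 bp mean −160 and −12 bp.

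Peak height above the floor was 37.3 and 39.6 in WT, a spread of 1.60 (SD, n = 2) around 38.4. In KD it was 3.71 in clone 15 and 27.0 in clone 18, that is 9.95% and 68.2% of WT. The mean log2 ratio was −1.94 (SD 1.96, exact permutation test, p = 0.333), and −0.55 in clone 18 alone.

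The signal left at the promoter was next compared with the signal that had appeared downstream. Over the first 0.5 kb, the depth at 10 min was 60.6% of that at 0 min in WT15 and 90.9% in WT18. In both KD profiles it had not fallen, at 108% in clone 15 and 112% in clone 18, so the groups did not overlap (difference of means 33.9 percentage points, SD between clones 18.6, exact permutation test, p = 0.333). From 0.5 to 1 kb the depth had grown in all 4 profiles, to 114% (WT15), 128% (WT18), 153% (KD15), and 116% (KD18), and the groups overlapped. The change over the first 1 kb was −3.92 for WT15, 0.988 for KD15, 3.08 for WT18, and 2.55 for KD18. KD minus WT was positive in clone 15 and negative in clone 18 (4.91 and −0.528, exact permutation test, p = 1). The sign in clone 18 was not stable, since it was positive (0.794) after division by the mean over the whole window.

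Downstream of the promoter, WT gained more than KD. The gain in mean depth over 1 to 5 kb was 8.85 for WT15, 0.520 for KD15, 4.21 for WT18, and 1.16 for KD18. Both WT gains exceeded both KD gains, with KD minus WT at −8.33 in clone 15 and −3.05 in clone 18 (mean −5.69, SD 3.73, exact permutation test, p = 0.333). As a share of the starting depth over 1 to 5 kb, the profiles reached 475% and 270% in WT and 136% and 145% in KD. The 2 KD profiles lay close together on this scale, but no floor is subtracted in it and their starting depths are not alike. At 0 min, KD15 had 1.45 over 1 to 5 kb, about its level over 10 to 20 kb (1.44). KD18 had 2.57, against 1.30 over 10 to 20 kb. The gain was largest at 1189 bp for WT15 (21.4) and at 1053 bp for WT18 (14.8), against 914 bp for KD15 (1.96) and 1174 bp for KD18 (3.93). The WT profiles also had a zone of loss inside the promoter, deepest at 301 bp for WT15 (−17.3) and 292 bp for WT18 (−3.70), which turned into gain at 685 and 517 bp. Neither KD profile had any such loss from the TSS to 5 kb, with a lowest change of 0.0423 in clone 15 and 0.0889 in clone 18.

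**Figure D3:**
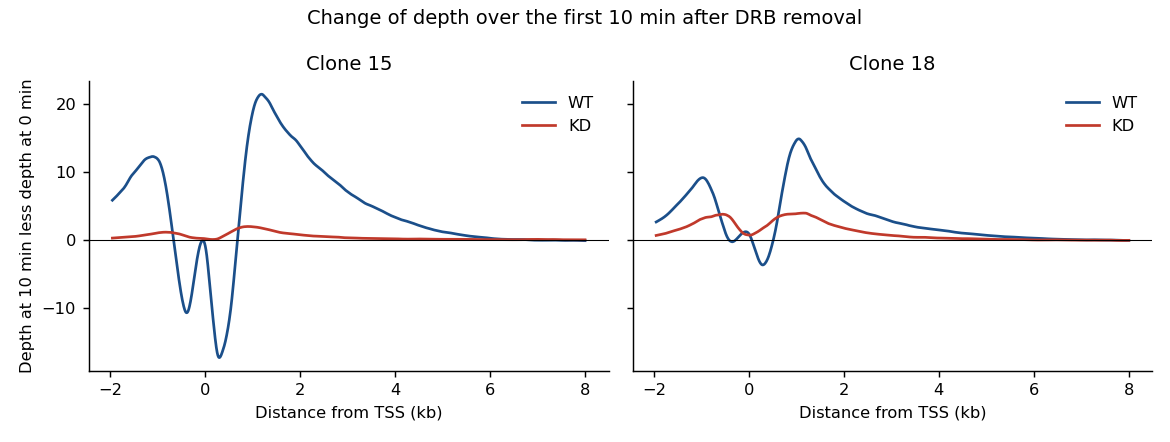
Depth at 10 min less depth at 0 min (100 bp running mean) against distance from the TSS in kb, for clone 15 (left) and clone 18 (right), WT in blue and KD in red. WT shows a loss near 300 bp (−17.3 in clone 15, −3.70 in clone 18) beside a gain that peaks at 1189 and 1053 bp, and KD shows a lower gain with no loss from the TSS to 5 kb.

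When the downstream gain was set against the promoter signal available at the start, the clones no longer gave one picture. The gain summed over 1 to 8 kb, in depth times kb, was 36.02 for WT15, 17.4 for WT18, 2.20 for KD15, and 4.59 for KD18. Divided by the 0 min signal above the floor over the first 1 kb, it came to 120% for WT15, 107% for KD15, 70.3% for WT18, and 28.0% for KD18. KD was lower than WT within each clone, but KD15 lay between the WT values (mean KD minus WT −27.4 percentage points, SD 21.1, exact permutation test, p = 0.667). KD15 thus combined a low gain with a low starting promoter signal, and KD18 had the lowest gain of the 4 relative to its starting signal.

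Scaling each profile to its own peak removes differences in height, and KD then still fell to low levels nearer the TSS than WT of the same clone. The peak holds signal that was already there at 0 min. In KD18 it was 27.0 high with a largest gain of 3.93, and in WT18 39.6 with a largest gain of 14.8. These distances thus depend on the gain relative to the signal that stayed, as well as on how far the wave had travelled. With the floor subtracted, the signal fell to 10% of the peak at 3.94 kb for WT15, 2.63 kb for KD15, 2.70 kb for WT18, and 1.99 kb for KD18. KD minus WT was −1.31 kb in clone 15 and −0.714 kb in clone 18 (mean −1.01 kb, SD 0.422, exact permutation test, p = 0.333). Both KD values lay below both WT values, but KD15 and WT18 nearly met, and with the lowest 5 kb running mean beyond 5 kb as the floor KD15 reached 2.83 kb and passed WT18, so that the groups overlapped while the sign held within each clone. Higher up the slope the groups overlapped. The distance to 50% of the peak was 1.64 kb for WT15 and 1.24 kb for WT18, and 1.33 kb for KD15 and 1.17 kb for KD18 (mean difference −0.19 kb, exact permutation test, p = 0.667), and the distance to 25% was 2.71 and 1.63 kb in WT and 1.85 and 1.44 kb in KD (−0.522 kb, exact permutation test, p = 0.667). At 5% of the peak the separation was wider, with 4.72 and 3.69 kb in WT and 3.18 and 2.62 kb in KD (−1.31 kb, SD 0.33, exact permutation test, p = 0.333). In kb, the difference between genotypes was larger at each lower level in both clones. A steeper fall of the signal in KD gives such a widening by itself, so it is not a separate result.

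**Figure D4:**
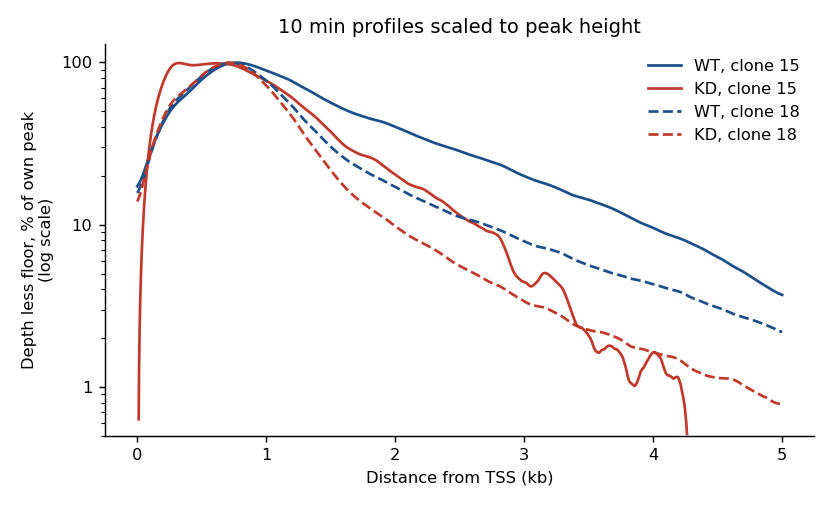
Depth less floor at 10 min as a percent of each profile's own peak (100 bp running mean, log scale, values under 0.5% not drawn) against distance from the TSS in kb, WT in blue, KD in red, clone 15 solid, clone 18 dashed. From about 3 kb on both KD curves lie under both WT curves, while nearer the promoter KD15 and WT18 overlap.

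The scaled profiles were also read at fixed positions. At 0.25 kb, KD stood at 90.9% and 54.0% of peak in clones 15 and 18, above the WT values of 49.5% and 51.6%. At 2 kb, WT stood at 40.1% and 17.1% and KD at 20.4% and 9.80%, and the groups overlapped because KD15 exceeded WT18. By 3 kb, both KD values, 4.43% and 3.37%, were below both WT values, 19.9% and 7.89%. In bins of 100 bp, scaled KD was below scaled WT in 58 of 80 bins from 0 to 8 kb, against 9.43% of the whole profile, and above it in 6 of 80, all between 0.1 and 0.7 kb, against 58.4%. Of the 40 bins from 1 to 5 kb, 25 had both KD below both WT and 0 had both above. A further 4 of the 58 bins lay from 0 to 1 kb, and all the others beyond 5 kb. The mean depth of KD15 over 4 to 5 kb was already under its own floor. Over 5 to 6 kb, WT stood at 2.22% and 1.56% of peak and KD15 at −2.73%. The order in the bins beyond 5 kb thus depends on the floor of KD15 and describes little of the entry. With the lowest 5 kb running mean as the floor, the 58 bins became 46, the 25 became 21, and the 6 stayed 6 in number.

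The decay length, the distance over which the signal above the floor falls by a factor of e, does not depend on the height of a profile. Fitted over 1 to 4 kb it was 1.40 kb for WT15, 0.707 kb for KD15, 1.13 kb for WT18, and 0.850 kb for KD18. Both KD values were shorter than both WT values, 0.779 ± 0.101 kb against 1.27 ± 0.189 kb (SD, n = 2), a difference of −0.488 kb (SD between clones 0.291, exact permutation test, p = 0.333). With the lowest 5 kb running mean as the floor, KD15 rose to 0.931 kb and the other 3 values moved by less than 0.01 kb, which left KD minus WT at −0.471 kb in clone 15 and −0.280 kb in clone 18. The slope was not the same along the way. In WT18 the decay length was 0.639 kb from 1 to 2 kb, 1.37 kb from 2 to 3 kb, and 1.59 kb from 3 to 4 kb, and in KD18 it was 0.479, 0.957, and 1.34 kb. WT15 had a more even slope, with 1.19, 1.51, and 1.38 kb, and KD15 had 0.717, 0.722, and 0.591 kb. With the mean over 10 to 20 kb as the floor, KD was shorter than WT within each clone in all 3 stretches. From 3 to 4 kb this depends on the floor in clone 15, since the depth of KD15 there was 1.55 against 1.45. With the lowest 5 kb running mean as the floor, KD15 fell from 6.626% of peak at 3 kb to 3.897% at 4 kb. WT15 fell from 19.97% to 9.583%, a steeper fall in proportion, so the order in clone 15 did not hold there. The stretches were not refitted with that floor.

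The share of the signal that lay beyond 1 kb, out of all signal above the floor from 0 to 8 kb, was 61.5% for WT15, 37.8% for KD15, 45.8% for WT18, and 35.4% for KD18. The 2 KD values were close to each other, 36.6% ± 1.64, and below both WT values, 53.6% ± 11.1 (SD, n = 2). The difference was −17.0 percentage points (SD between clones 9.46, exact permutation test, p = 0.333), and −10.3 in clone 18 alone. Before release, at 0 min, the same share was 13.6% for WT15, −16.1% for KD15, 16.8% for WT18, and 23.3% for KD18, where the negative value of KD15 comes from a mean depth over 1 to 8 kb under its floor. KD minus WT in clone 15 was thus already −29.7 points at 0 min, and in clone 18 it was 6.57. The change of the share from 0 to 10 min was larger in KD than in WT in clone 15 and smaller in clone 18 (KD minus WT 6.03 and −16.9 points, exact permutation test, p = 1). At 10 min, the difference changed in size with the floor and with the edge of the promoter, to −33.9 points with a floor from 20 to 40 kb and to −9.01 points with the edge at 0.5 kb, and remained negative in both clones. KD15 rose to 44.02% with the lowest 5 kb running mean as the floor and fell to 5.14% with the floor from 20 to 40 kb. The mean distance of the signal from the TSS, over the same 8 kb, was 1.61 and 1.30 kb in WT and 0.730 and 1.03 kb in KD (mean difference −0.576 kb, SD 0.424, exact permutation test, p = 0.333). The value of KD in clone 15 is lowered by depths below its floor, and with the lowest 5 kb running mean as the floor it was 1.14 kb, for a mean difference of −0.37 kb. With the floor from 20 to 40 kb, its signal less floor gave a negative mean distance (−1.41 kb), which has no meaning as a length.

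**Figure D5:**
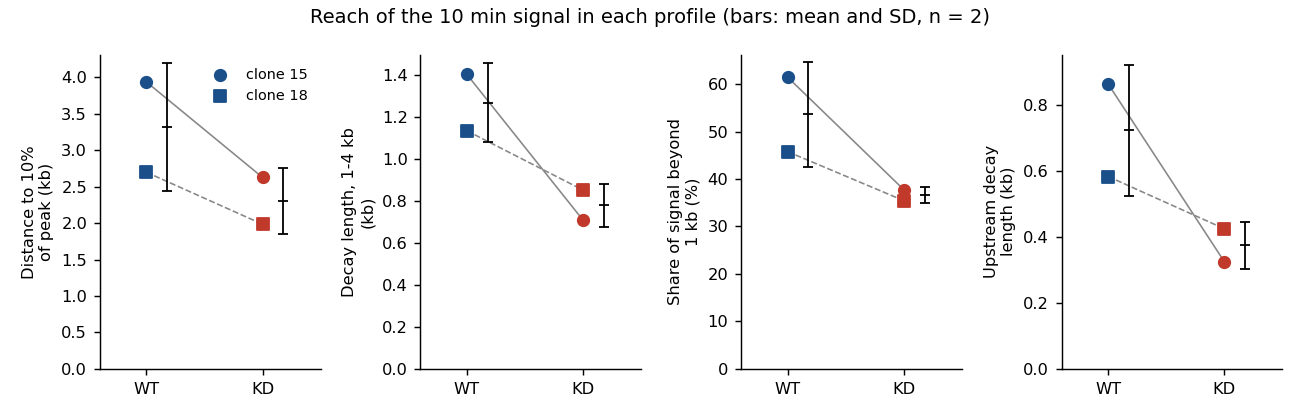
Distance to 10% of the peak (kb), decay length over 1 to 4 kb (kb), share of the signal beyond 1 kb (%) and upstream decay length (kb) in each 10 min profile, with WT in blue, KD in red, circles for clone 15, squares for clone 18, and lines joining the samples of a clone. Bars give the mean and SD of 2 clones, and in each panel both KD points lie under both WT points.

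A traveling ratio, the depth from −30 to 300 bp over that from 300 bp to 8 kb, was 1.44 for WT15, 1.98 for WT18, 1.60 for KD15, and 2.24 for KD18. Its first bin is the promoter bin that the paper used for RNAPII ChIP-seq. Here the promoter peak lay beyond 300 bp, at 774 bp in WT15, 723 bp in WT18, 311 bp in KD15 and 715 bp in KD18. The ratio therefore sets the region around the TSS against the peak and the gene body together. It was higher in KD within each clone, by 0.16 and 0.18 on the log2 scale, but the clones differed more than the genotypes and the groups overlapped (exact permutation test, p = 0.667). With the floor subtracted, the ratio was 1.49 and 2.15 in WT and 3.17 and 2.66 in KD, so that the groups no longer overlapped (mean log2 ratio 0.70, exact permutation test, p = 0.333). The rise in clone 15, where the peak of KD lay closest to the first bin, was the larger, 1.09 on the log2 scale, against 0.31 in clone 18.

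Only what was new since 0 min was looked at in a further comparison, in which the 0 min profile of the same clone and genotype was subtracted position by position. The gain fell to 10% of its own peak at 4.49 kb for WT15, 3.52 kb for KD15, 3.95 kb for WT18, and 3.43 kb for KD18, and its decay length was 1.56 and 1.27 kb in WT and 1.13 and 1.02 kb in KD. Both measures kept the order of both KD below both WT. Nearer the peak the order depended on the clone. The gain over 1 to 2 kb, as a percent of its own peak, was 84.1% for WT15 and 65.1% for KD15, but 66.1% for WT18 and 75.2% for KD18. The distance to 50% likewise was longer in KD18 than in WT, 1.88 against 1.69 kb, and shorter in KD15, 1.68 against 2.37 kb.

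Upstream of the TSS the profiles had a second peak, separated from the first by a trough at the TSS. Libraries were strand specific according to the labels, and the sources used here do not state which strand the profiles count. At 10 min this peak lay at −591 and −529 bp in WT and at −519 and −522 bp in KD. Its height above the floor was 22.8 for WT15, 27.7 for WT18, 2.25 for KD15, and 20.01 for KD18, a fold reduction of 10.1 in clone 15 and 1.38 in clone 18 (mean log2 ratio −1.90, SD 2.03, exact permutation test, p = 0.333). For the downstream peak the mean log2 ratio was −1.94. Relative to the downstream peak, the upstream one stood at 61.0% and 70.0% in WT and at 60.7% and 74.2% in KD, and KD minus WT had opposite signs in the clones (−0.338 and 4.20 percentage points, exact permutation test, p = 1). With the lowest 5 kb running mean as the floor the value of clone 15 was positive (0.557), and with the 0 min profile subtracted the mean was 17.3 points, through 34.5 in clone 18.

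The upstream signal also spread outward after release, and less so in KD. From −2 to −1 kb the depth of WT15 rose from 3.04 to 12.5, and that of WT18 from 3.31 to 8.73. KD15 rose from 1.27 to 1.81, and KD18 from 3.42 to 5.01. In clone 18, KD and WT thus started from about the same depth there, with a log2 ratio of 0.047 at 0 min, and differed by −0.80 at 10 min. The upstream decay length, fitted from −1 to −2 kb above the lowest 5 kb running mean, was 0.863 and 0.583 kb in WT and 0.325 and 0.424 kb in KD. Both KD values were again shorter than both WT values (mean difference −0.348 kb, SD 0.269, exact permutation test, p = 0.333). This floor was taken because KD15 lay near its 10 to 20 kb level there. Its depth was 1.55 from −2 to −1.5 kb, against a lowest floor of 1.36, so its value depends on the floor. With the 0 min profile subtracted, the lengths were 1.14 and 0.723 kb in WT and 0.701 and 0.606 kb in KD, and KD15 and WT18 nearly met. Since the profiles end at −2 kb, the full reach of the upstream signal could not be followed.

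Exons take up most of the first 250 bp and little of the region of entry beyond 500 bp. In 8888 coding genes of GENCODE 44 whose transcripts span 30000 bp or more (GRCh37 coordinates, equal to hg19), 72.8% were exonic from 0 to 250 bp, 24.8% from 250 to 500 bp, 10.7% from 500 to 750 bp, and 1.65% from 2 to 5 kb. This gene list is newer than that of the authors and is not the list the profiles were averaged over. With the 50 bp running mean, the peak of KD15 lay within the first 500 bp, at 290 bp at 0 min and 311 bp at 10 min. The part of exonic signal in the promoter profile of KD15 was not tested.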

How the data were processed

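Nascent RNA was profiled by DRB/GRO-seq in clones 15 and 18. Reads of 36 bp were aligned by the authors with BWA 0.5.9 (build hg19), and the submitters' processing notes also name CASAVA 1.8.2. They removed rRNA and blacklisted reads, extended reads to 250 bp, scaled libraries to 20000000 reads, and took a trimmed mean (0.01) over 8529 genes. The deposited signal is this mean coverage at 122001 positions from −2 to 120 kb. The labels give 100 mM DRB and call the times doxycycline times; the paper's minutes after release are used.

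All values were whole multiples of 1 step (tolerance 0.01 step), from which library sizes followed for the 8359 genes left after trimming. The floor was the mean over 10 to 20 kb. Peaks used 50 bp and distances 100 bp running means, staying under for 500 bp. Decay lengths are least-squares fits to the natural log in 100 bp bins. Measures were tested on simulated profiles. Exact two-sided permutation tests compared 2 with 2 samples. Samples of a clone are paired by the labels (correlation of their deviations in 1 kb bins −0.0429). Values after ± and the bars in the figure are SDs over 2 clones. The counting errors given cover read counts only. The comparison, measures and windows were chosen with earlier results of these data known, and the upstream measures after seeing the profiles. The change of the KD to WT ratio over 1 to 5 kb was not among the planned measures. No gene is named with a value, since profiles hold none. Profiles at 25 and 40 min were not used. Python 3.11.15, numpy 2.4.6, pandas 2.3.3, and matplotlib 3.10.9 were used.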

Additional observations from a re-analysis of the deposited data

Results flagged for a closer look

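Over the 4 profiles at 10 min, 21 measures were looked at for a sample far from the others, where chance gives about 1.05. The downstream peak of KD of clone 15, at 311 bp, lay apart from the other 3, whose nearest was at 715 bp. The upstream peak of WT of clone 15, at −591 bp, lay apart from the other 3, whose nearest was at −529 bp.

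In the 7 measures listed here KD minus WT had opposite signs in the clones. Others did as well, such as the peak position at 0 min with the 200 bp mean (−185 and 119 bp). With 2 clones, opposite signs are common without any difference between genotypes. For the change of promoter depth since 0 min, clone 15 exceeded clone 18 by 5.43. For the height of the upstream peak relative to the downstream one, clone 15 less clone 18 was −4.54 percentage points. For the share of signal beyond 1 kb it was −36.3 percentage points at 0 min and 22.9 for the change from 0 to 10 min. For the depth over 0.5 to 1 kb as a percent of that at 0 min it was 51.0 points. For the position of the downstream peak at 0 min it was −358 bp, and for that of the largest gain −396 bp. Each clone gave 1 pair, so these 7 contrasts were not tested.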

How the results depend on the processing

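The exact permutation and sign-flip tests used could not pass 0.05 with 2 clones, so the alternatives bear on direction and size only. Each of 63 alternative values from other scalings, floors, running means, fit windows, edges and heights kept the sign of its mean difference, but single clones did not always: clone 18 turned positive for the distance to 50% (0.188 kb) and the scaled depth over 1 to 2 and 2 to 3 kb (9.09 and 0.887 points) with the 0 min profile subtracted. The decay length could not be fitted with the floor from 20 to 40 kb or over 2 to 5 kb, and the share beyond 1 kb and the mean distance had no value with the 0 min profile subtracted, because depths less floor were not positive in 1 profile each. Leaving out a clone turned the sign of 2 results. The change of promoter depth since 0 min ranged from −0.528 without clone 15 to 4.91 without clone 18, and the relative height of the upstream peak, in percentage points, from −0.338 without clone 18 to 4.20 without clone 15. Without clone 15 the difference shrank to −0.282 kb for the decay length and to −8 bp for the peak position. With the clone as a replicate block, mean differences stayed the same, such as −0.488 kb for the decay length (p = 0.5 in an exact sign-flip permutation test), and no call changed.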
